A study of Homo sapiens with 36 samples.

Results

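The genes described here are 5 of the urokinase system, PLAU, PLAUR, PLAT, SERPINE2 and SERPINB2, among 20033 protein-coding genes of the annotation (GENCODE release 44, hg38). They were chosen by name, and every peak with a base within 3 kb of any of their annotated start sites was collected from each of 16 peak lists, together with every peak of the Jun family within 100 kb. The study profiled chromatin by ChIP-seq, which sequences the DNA fragments bound by an antibody's target, in A549, a lung adenocarcinoma line, and in BEAS-2B (B2B), an immortalized but non-cancerous bronchial epithelial line, neither of them treated according to the labels. The samples used here cover RNA polymerase II (pol II), the Mediator subunit Med1 and the histone marks H3K4me3 and H3K27ac in both lines. They also cover the AP-1 proteins JunB, Jun and JunD in both lines, and CTCF and the cohesin subunit Rad21 in B2B only. The paper also reports CTCF and Rad21 in A549 and Fos in both lines, which the labels here do not list. The labels list 36 samples in 18 groups of 2 replicates each, 4 of the samples being input chromatin, and the authors merged the replicates before they called peaks. Each list is therefore 1 value per line and target, with no replicate error, and no difference between the lines could be tested.

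Urokinase (PLAU) and the tissue-type activator (PLAT) are serine proteases that cleave plasminogen to plasmin, a protease that digests fibrin and matrix proteins. The receptor PLAUR holds urokinase on the cell surface, while the serpins SERPINE2 (protease nexin-1) and SERPINB2 (plasminogen activator inhibitor type 2) inhibit the activators. AP-1 is a dimer of Jun-family and Fos-family proteins that binds the sequence TGACTCA or its reverse complement TGAGTCA, and PLAU is a well known gene of the AP-1 response. H3K4me3 marks active start sites, H3K27ac marks active promoters and enhancers, and pol II and Med1 are parts of the transcription machinery.

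The fold enrichment given for a peak is the ratio, deposited by the authors, of the reads covering the peak's summit to the local background of the peak caller, each plus 1 read. Because fold enrichment depends on that background, the summit pileup and the background were recovered from the deposited fold and p-value, and a whole number of reads came out for all 127 promoter peaks of the 5 genes. Background differed between the lines at the start sites of several genes, and it is therefore given beside the values. The rank of a peak is the percent of the peaks in its own list with a lower fold. A missing peak says that no peak passed the authors' threshold, not that the protein or mark was absent. Depth is unknown, since the lists give no read totals. The lists ranged from 8563 peaks for JunB in B2B to 61225 for CTCF, and 4 of them ended early, namely H3K27ac in A549 on chromosome 13, Med1 in both lines on chromosome 15 and pol II in A549 on chromosome 20. PLAUR on chromosome 19 and SERPINB2 on chromosome 18 were thus not covered by the H3K27ac list of A549 or by either Med1 list. Among 8 genes checked against the line labels by H3K4me3, the epithelial genes KRT8, KRT18, EPCAM and CDH1 had a promoter peak in both lines, as did VIM, CDH2 and NKX2-1, while CDKN2A, a locus known to be deleted in A549, had a peak in B2B only.

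Across the 5 genes, the pooled lists placed active promoter marks at PLAU, PLAUR and SERPINE2 in both lines and at the PLAT start site mainly in B2B. At SERPINB2 they placed them in neither line as far as the lists cover it. At SERPINE2 the highest folds in B2B were only 1.84 for H3K4me3 and 2.31 for H3K27ac, against 40.0 and 51.5 in A549. H3K4me3 at PLAU was also low in B2B, at 2.79 against 30.0. The local background at these peaks was higher in B2B. H3K4me3 was called within 3 kb of a start site at 4 of 5 genes in A549 and at 4 of 5 in B2B, where 73.7% and 62.7% of all coding genes had such a peak. Pol II was called at 3 of 5 genes in each line, against 69.6% of coding genes in A549 and 50.9% in B2B, but the genes differed. PLAU and PLAUR had pol II in both lines, SERPINE2 in A549 only and PLAT in B2B only. H3K27ac was called at 3 of the 3 genes that its A549 list covers (background 73.5%) and at 4 of 5 in B2B (64.9%). Med1 was called at 2 of 3 covered genes in A549 (54.7%), PLAU and SERPINE2, and at 3 of 3 in B2B (61.1%), which added PLAT.

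**Figure D1:**
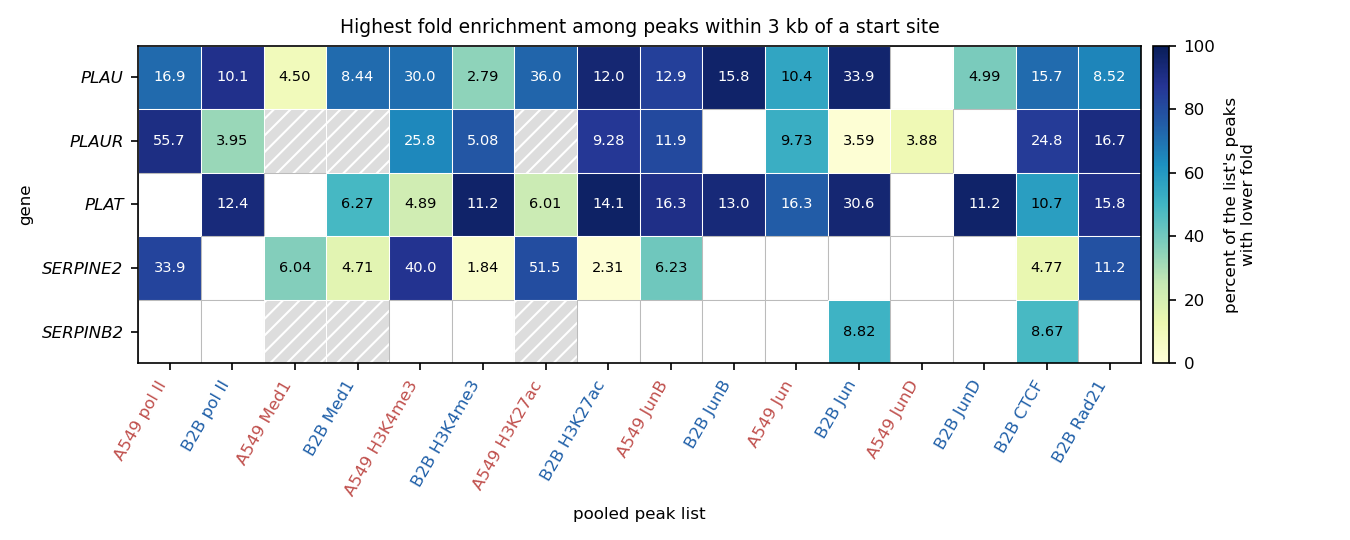
Each cell gives, for 1 gene (rows) and 1 pooled peak list (columns), the highest fold enrichment among peaks within 3 kb of a start site, and its colour gives the percent of that list's peaks with a lower fold. White cells have no peak and hatched cells lie past the end of a list. PLAT stands high in the B2B lists other than Med1 and CTCF, and PLAU also does so in those of JunB, Jun and H3K27ac. SERPINE2 stands high in the A549 lists of pol II, H3K4me3 and H3K27ac, though PLAUR is higher for pol II. SERPINB2 has a value in 2 lists only.

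Jun-family proteins were called within 3 kb of a start site at 4 of 5 genes in A549 (43.8% of coding genes had a peak of at least 1 of the 3 proteins) and at 4 of 5 in B2B (25.5%). JunB was called at 4 genes in A549 (31.1%) and at 2 in B2B (5.28%), which were PLAU and PLAT. Jun was called at 3 genes in A549 (38.2%), namely PLAU, PLAUR and PLAT, and at the same 3 and SERPINB2 in B2B (25.4%). JunD was called at PLAUR alone in A549 (17.8%) and at PLAU and PLAT in B2B (3.21%). The B2B lists of JunB and JunD were short, and few genes had such a peak there, so that both PLAU and PLAT belonged to a small minority of genes. For PLAU this depended on the distance, since within 1 kb both proteins were called at PLAT only. The 5 genes were chosen by name, with earlier results of these data known. They have a median of 9 annotated start sites each, against 5 for all coding genes, so these shares are descriptions. CTCF was called near 5 of 5 genes in B2B (50.1%) and Rad21 near 4 of 5 (67.9%), all but SERPINB2.

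PLAU (ENSG00000122861.16, chr10:73909177-73917496, forward strand, 5 start sites) encodes urokinase itself. It carried pol II, H3K4me3, H3K27ac and Jun-family peaks in both lines. By the summed fold of the 3 proteins, its most enriched Jun-family site lay upstream of the gene in both lines. In A549 the sums were close, 20.1 upstream and 17.6 at the start, and Jun alone had the higher fold at the start. The upstream site, chr10:73906553-73907323, had its strongest summit at -2.3 kb from the 5′ end of the gene (distances follow the direction of the gene, and negative values are upstream) and lies between genes. In A549 its fold enrichment was 12.9 for JunB and 7.25 for Jun, with no JunD peak. In B2B JunB had a fold of 15.8, Jun of 33.9 and JunD of 4.99. Jun at this site ranked above 95.6% of the B2B Jun list but above only 32.9% of the A549 Jun list. The pileups told the same order, with 151 Jun reads over the summit in B2B and 19 in A549, and 104 JunB reads in B2B against 56 in A549, although the read totals of the pools are unknown. Pol II was called over the site in both lines, at a fold of 5.57 in A549 and 10.1 in B2B. Med1 (fold 8.44) and CTCF (fold 15.7) overlapped it in B2B, and H3K27ac peaks flanked the summit on both sides in B2B, at -2.81 kb above 94.2% of its list and at -1.97 kb above 51.6%. No H3K27ac or Med1 peak of A549 and no H3K4me3 peak of either line overlapped the site.

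The reference sequence around the strongest Jun summit of this site is given to show what lies under it, on the forward strand (chr10:73906792-73906892, 50 bases to either side of the summit), and like the other sequences below it is the hg38 reference and not a sequence of the cells.
PLAU -2.3 kb: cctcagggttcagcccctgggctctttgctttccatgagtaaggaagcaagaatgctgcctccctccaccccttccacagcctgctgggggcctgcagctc
Neither TGACTCA nor TGAGTCA was found within 50 bp of the summit, and the only copy in the whole region lay 430 bp away from it.

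At the 5′ end of PLAU a second Jun-family region (chr10:73908982-73909575, over the first exon) was also shared. Its fold was 7.28 for JunB and 10.4 for Jun in A549 and 13.5 for Jun in B2B, and only 18 bp and 10 bp separated the Jun summits from the 5′ end. Pol II was called there in both lines, with a fold of 15.5 and 51 reads in A549 and a fold of 4.09 and 26 reads in B2B. The widest promoter marks, in contrast, lay near +2 kb, where further start sites are annotated. H3K4me3 there spanned 1528 bp in A549 and 2256 bp in B2B, H3K27ac spanned 1253 bp and 1651 bp, and no Jun-family peak was called there in either line.

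The fold at these marks differed far more than the reads did. H3K4me3 near +2 kb had 134 reads over a background of 3.50 in A549, a fold of 30.0, and 125 reads over a background of 61.7 in B2B, a fold of 2.01. H3K27ac had 122 reads over 2.42 in A549 (fold 36.0) and 223 over 41.5 in B2B (fold 5.28). Pol II had 64 reads over 2.84 in A549 (fold 16.9) and 120 over 35.8 in B2B (fold 3.29). The lower folds of B2B at this position thus went with a higher local background and not with fewer reads, and how much of the difference between the lines rests on the background was not tested.

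**Figure D2:**
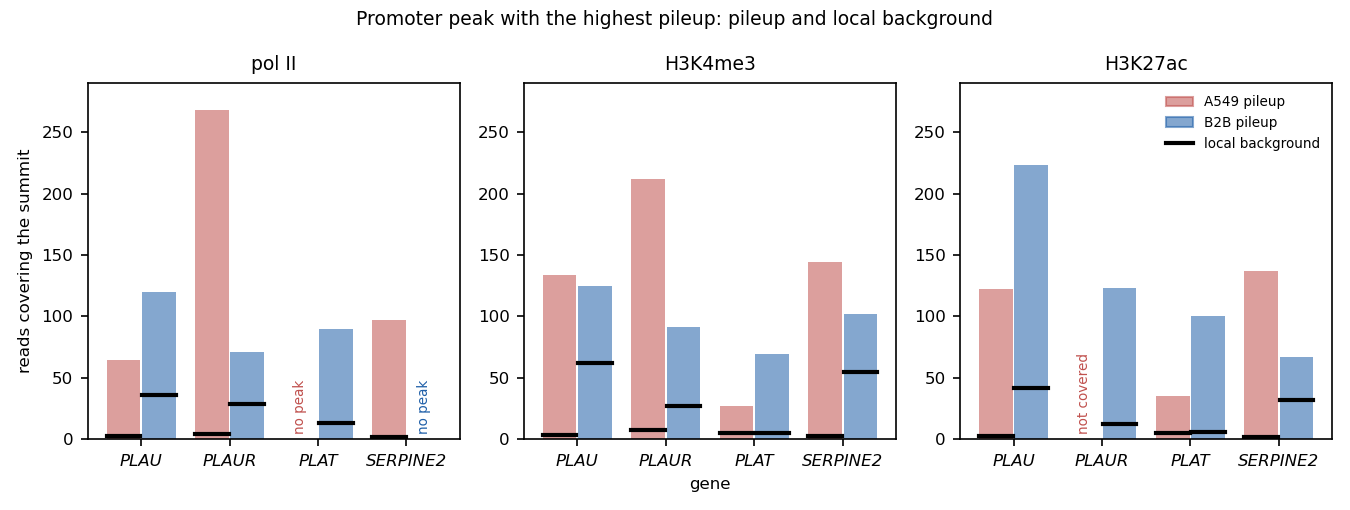
Bars give the reads covering the summit of the promoter peak with the most reads, and black lines the local background, for pol II, H3K4me3 and H3K27ac at 4 genes in A549 (red) and B2B (blue), each from 1 pooled list without error bars. Backgrounds of A549 stay between 1.68 and 7.26 reads, while those of B2B reach 61.7 at PLAU and 54.9 at SERPINE2.

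PLAT (ENSG00000104368.19, chr8:42174718-42207709, reverse strand, 12 start sites) encodes the tissue-type activator. Of the 5 genes it was the only one with pol II called in B2B and not in A549. Pol II had 4 peaks within 3 kb of its start sites in B2B and none in A549. The B2B peaks had folds of 6.62 at +0.171 kb, 12.4 at +11.4 kb, 3.71 at +12.3 kb and 4.66 at +10.5 kb. Med1 likewise had 4 peaks in B2B, with folds from 2.96 to 6.27, and none in A549. H3K4me3 covered 1735 bp just inside the gene in B2B, with a fold of 11.2 that ranked above 96.3% of its list and 69 reads over a background of 5.28. The only H3K4me3 peak of A549 was 258 bp wide at +11.1 kb, with a fold of 4.89, 27 reads over a background of 4.72, and a rank above 22.2% of its list. The backgrounds under these peaks were close, but the peaks lie at different positions, with summits at +0.677 kb in B2B and +11.1 kb in A549. The H3K4me3 background of A549 at the 5′ end is unknown, since no peak was called there.

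H3K27ac was called in both lines. In A549 it had 2 narrow peaks, of 203 bp at +11.1 kb (fold 6.01) and 181 bp at +0.0910 kb (fold 5.52). In B2B it had 5 peaks, the strongest of 1070 bp at +12.6 kb with a fold of 14.1, above 97.0% of the list, and others of fold 10.1 at -0.394 kb and 9.89 at +11.1 kb. The H3K27ac peaks of B2B therefore fell into a group at the 5′ end and a group about an annotated alternative start site in the gene. The H3K4me3 peak of B2B lay in the first group, and none was called in the second. Whether that alternative start is used in B2B was not tested.

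Jun-family proteins were called at PLAT in both lines, and 2 of the regions within 3 kb of a start site were shared. The first, chr8:42209778-42210158 between genes at -2.3 kb, had folds of 16.3 for JunB and 16.3 for Jun in A549. In B2B JunB had 13.0, Jun 30.6 and JunD 11.2, so that all 3 proteins were called. Jun there ranked above 94.2% of its B2B list and above 75.4% of its A549 list, JunD ranked above 96.1% of its B2B list, and the Jun summits of the lines lay 3 bp apart. The second, chr8:42196149-42196689 in an intron at +11.3 kb, had folds of 4.75 for JunB and 9.96 for Jun in A549 and in B2B a JunB fold of 6.45, a Jun fold of 22.9 and a JunD fold of 8.50, with Jun summits 4 bp apart. Both regions hold 1 copy of the AP-1 motif, with its centre 19 bp and 16 bp from the strongest summit. A Jun peak at the 5′ end itself (summit at -0.0410 kb, fold 8.95) was called in B2B alone, as were Jun peaks at +12.6 kb and +10.3 kb. A549 alone had a Jun peak at +17.1 kb (fold 9.52) and a JunB peak at +22.8 kb (fold 5.30), both within the gene and over no other peak of either line. JunB and Jun were thus called at PLAT in A549, where pol II was not. Of these regions of 1 line, those at +12.6 kb, +17.1 kb and +22.8 kb also held the motif. Its centre lay 1 bp, 11 bp and 31 bp from their summits. The regions at +10.3 kb and at the 5′ end held no copy.

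**Figure D3:**
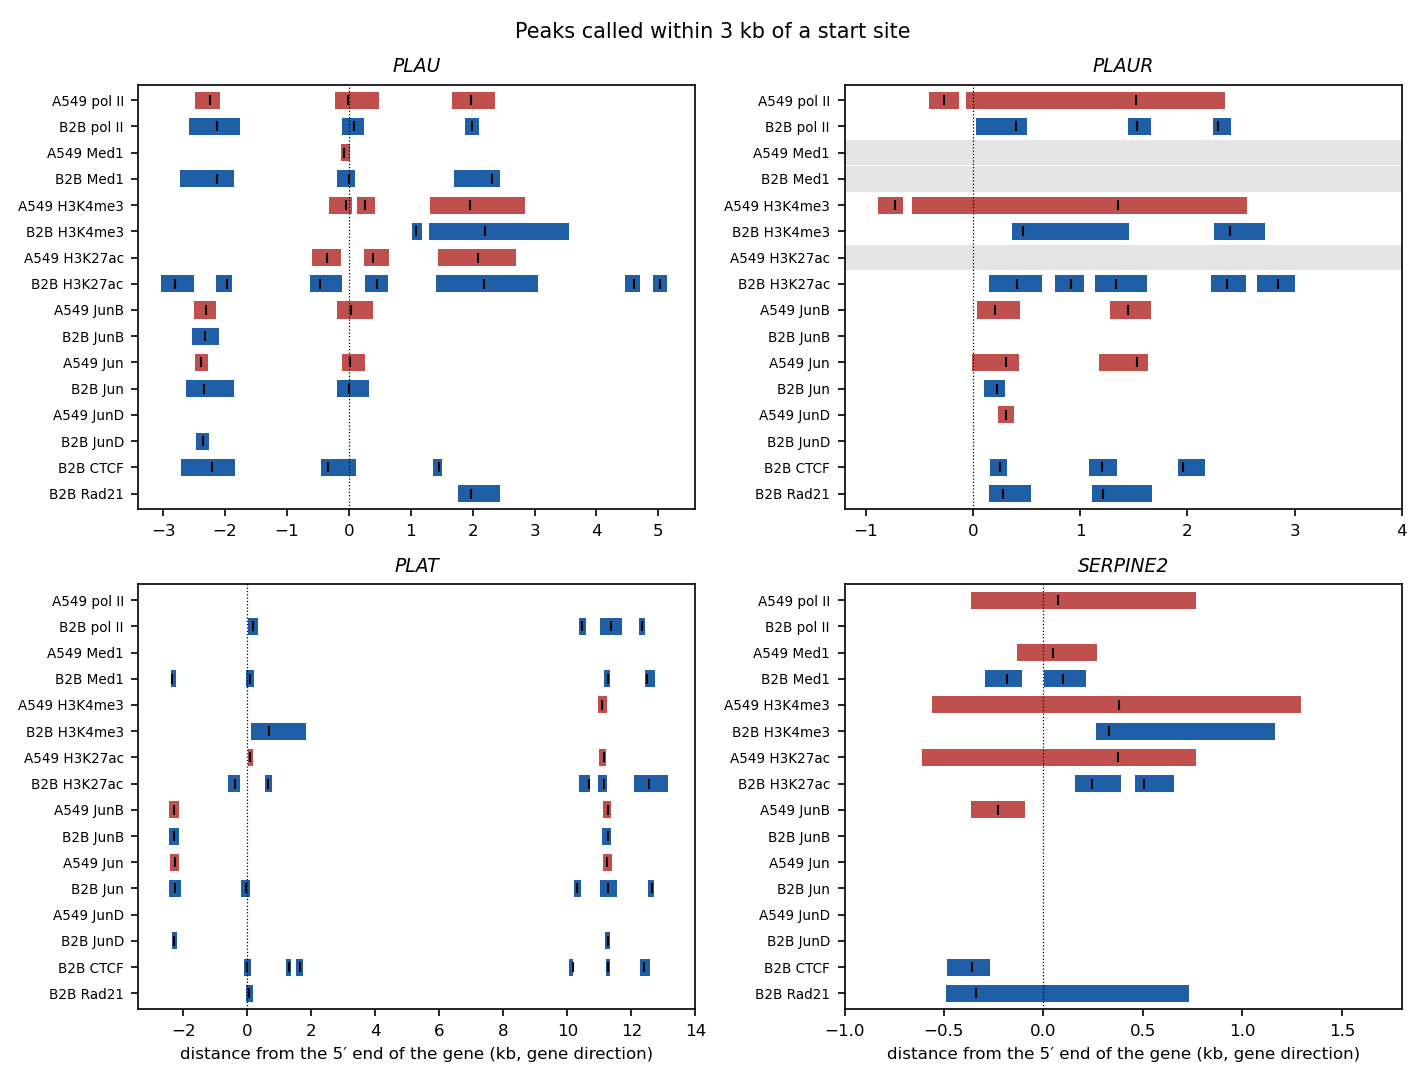
Bars show the peaks of each pooled list (rows, A549 red and B2B blue) along the distance from the 5′ end of 4 genes in kb, with ticks at the summits and grey rows where a list does not cover the gene; weaker pol II peaks of A549 and 1 CTCF peak inside PLAUR beyond +4 kb and the A549 Jun-family peaks of PLAT beyond +14 kb lie outside the windows. PLAU has 3 separate clusters, PLAT has peaks at -2.3 kb, at the 5′ end and near +11 kb, and SERPINE2 has no pol II peak in B2B.

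PLAUR (ENSG00000011422.12, chr19:43646095-43670547, reverse strand, 16 start sites) encodes the urokinase receptor. It had the strongest pol II signal of the 5 genes in A549. The pol II peak at its 5′ end in A549 was 2425 bp wide, with a fold of 55.7 from 268 reads over a background of 3.83, above 90.8% of its list, and 13 pol II peaks in all lay within 3 kb of its start sites. In B2B pol II had 3 narrower peaks, of 171 bp to 476 bp, with folds from 2.41 to 3.95. They had 33 to 71 reads over backgrounds of 7.60 to 28.9. H3K4me3 was 3135 bp wide in A549 with 212 reads over 7.26 (fold 25.8), and in B2B its 2 peaks had 91 reads over 27.2 (fold 3.26) and a fold of 5.08. Here both the reads and the fold were lower in B2B, while the background was higher. H3K27ac, given by the B2B list alone, had 5 peaks with folds from 3.79 to 9.28.

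The PLAUR start site was called for all 3 Jun-family proteins in A549, the only such start among the 5 genes. The region chr19:43670106-43670556 over the first exon had a JunB fold of 11.9, a Jun fold of 8.37 and a JunD fold of 3.88 in A549, against 3.59 for Jun alone in B2B, above 1.78% of its list. Jun there had 27 reads over a background of 2.35 in A549 and 37 reads over 9.60 in B2B. The lower Jun fold of B2B thus went with a higher background and not with fewer reads. The JunD peak had a −log10 q of 4.59, the JunB peak one of 42.4. A second region at +1.5 kb in an intron, chr19:43668888-43669374, was called in A549 alone, at 6.93 for JunB and 9.73 for Jun. The start region holds 1 AP-1 motif, whose centre lay 5 bp from the strongest summit.

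A pair of further PLAUR regions was among the most enriched, and their sequences are given because one was called in A549 alone and the other in both lines. The region chr19:43675392-43675857 at -5.1 kb had all 3 proteins in A549, with a JunB fold of 14.4, a Jun fold of 17.6 and a JunD fold of 6.46, a pol II peak over it, and no peak of any protein in B2B. The region chr19:43700943-43701749 at -31.0 kb had fold enrichments of 13.0 (JunB), 26.8 (Jun) and 5.17 (JunD) in A549 and of 25.9 (Jun) in B2B, ranking Jun above 89.1% and 91.2% of the lists, with summits 23 bp apart. Pol II overlapped this region in both lines, and H3K4me3, H3K27ac and CTCF did so in B2B. The windows below, chr19:43675577-43675677 and chr19:43701495-43701595, are written on the reverse strand, which is the strand of the gene, and capitals mark TGACTCA or TGAGTCA.
PLAUR -5.1 kb: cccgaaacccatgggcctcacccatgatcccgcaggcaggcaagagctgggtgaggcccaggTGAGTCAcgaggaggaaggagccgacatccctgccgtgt
PLAUR -31.0 kb: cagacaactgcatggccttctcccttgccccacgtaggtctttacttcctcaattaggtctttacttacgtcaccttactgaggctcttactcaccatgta
The site of A549 alone holds the motif 15 bp from its summit. No copy was found anywhere in the region called in both lines.

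SERPINE2 (ENSG00000135919.14, chr2:223975045-224039318, reverse strand, 9 start sites) encodes protease nexin-1. Its promoter marks were strong in A549 and weakly enriched in B2B. Pol II in A549 spanned 1133 bp with a fold of 33.9, from 97 reads over a background of 1.89, and no pol II peak was called in B2B. H3K4me3 had 144 reads over 2.62 in A549 (fold 40.0, above 88.1% of its list) and 102 reads over 54.9 in B2B (fold 1.84, above 4.54%). H3K27ac had 137 reads over 1.68 in A549 (fold 51.5) and at most 67 reads over 31.8 in B2B, where its 2 peaks had folds of 2.31 and 2.07. The B2B background was therefore high here as at PLAU, and whether it also kept a pol II peak from being called was not tested. Med1 had a fold of 6.04 in A549 and of 4.71 and 4.61 in B2B, from 17 and 11 reads. Rad21 spanned 1221 bp over the start site in B2B with a fold of 11.2.

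At the SERPINE2 start site the Jun family was called in A549 alone, as 1 JunB peak (chr2:224039412-224039683) with a fold of 6.23, 18 reads and a rank above 40.7% of its list. It did not remain when the A549 and B2B lists of JunB were cut to equal length. The enriched Jun-family regions lay farther away and differed in order between the lines. At +43.5 kb in an intron, chr2:223995618-223995961 had folds of 37.4 for Jun and 7.54 for JunB in A549 against 10.2 for Jun in B2B, and its Jun ranked above 94.8% of the A549 list and 58.0% of the B2B list. At -47.4 kb between genes, chr2:224086457-224086950 showed the opposite order, with folds of 29.6 for Jun and 5.91 for JunD in B2B against 7.97 for Jun and 4.56 for JunB in A549, and ranks of 93.5% in B2B and 39.4% in A549. No peak of pol II, Med1, H3K4me3, H3K27ac, CTCF or Rad21 overlapped either region. A further region, at +82.0 kb over the first exon of MRPL44, was called for all 3 proteins in A549 alone, with folds from 5.36 to 8.97, and carried marks of all other targets.

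The windows of these regions are given for the contrast in sequence between the 2 regions away from start sites and the one at a neighbouring start (chr2:223995751-223995851, chr2:224086687-224086787 and chr2:223957316-223957416, reverse strand, capitals as above).
SERPINE2 +43.5 kb: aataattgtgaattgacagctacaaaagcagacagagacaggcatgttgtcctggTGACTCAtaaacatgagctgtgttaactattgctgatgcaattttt
SERPINE2 -47.4 kb: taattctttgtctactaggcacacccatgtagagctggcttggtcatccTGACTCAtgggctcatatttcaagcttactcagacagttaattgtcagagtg
SERPINE2 +82.0 kb: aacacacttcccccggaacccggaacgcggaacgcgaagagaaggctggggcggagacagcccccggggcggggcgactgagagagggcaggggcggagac
Both distal regions hold the motif, 8 bp and 2 bp from the summit, whereas no copy was found in the region over MRPL44.

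SERPINB2 (ENSG00000197632.9, chr18:63871692-63903888, forward strand, 5 start sites) encodes plasminogen activator inhibitor type 2. No pol II or H3K4me3 peak of either line and no H3K27ac peak of B2B lay within 3 kb of its start sites. The only peaks there were those of Jun (fold 8.82, 23 reads) and CTCF (fold 8.67, 25 reads) in B2B, with summits at -2.11 kb and -2.15 kb. Yet the gene lay among some of the most enriched Jun-family regions. Of the 7 regions within 100 kb, 5 were called in both lines, 2 in B2B alone and none in A549 alone.

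The region with the highest summed fold, chr18:63969867-63970688 at +98.3 kb over the first exon of the neighbouring SERPINB8, had folds of 57.1 for Jun, 30.5 for JunB and 15.7 for JunD in A549, against 5.97 for Jun in B2B. Jun there ranked above 98.9% of the A549 list and 21.7% of the B2B list. Regions inside SERPINB2 were also called in both lines. At +8.2 kb Jun had a fold of 29.6 in A549 and 8.32 in B2B, and at +11.1 kb it had 27.9 in A549 and 25.0 in B2B. The region chr18:63788502-63788817 at -83.0 kb, in an intron of SERPINB7, had all 3 proteins in B2B, with folds of 7.13 (JunB), 25.4 (Jun) and 6.95 (JunD), and in A549 10.2 for JunB and 18.0 for Jun. Apart from the region over SERPINB8, none of these overlapped a peak of pol II or H3K4me3.

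The sequences show the AP-1 motif in the regions called in both lines and its absence from the window at -2.1 kb (chr18:63788595-63788695, chr18:63969987-63970087 shortened to chr18:63970042-63970070 because it lies over an untranslated region, and chr18:63869535-63869635, forward strand, capitals as above).
SERPINB2 -83.0 kb: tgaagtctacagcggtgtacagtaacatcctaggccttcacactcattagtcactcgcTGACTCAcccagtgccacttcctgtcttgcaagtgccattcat
SERPINB2 +98.3 kb: tcgaacggttcTGAGTCAtctgccggaag
SERPINB2 -2.1 kb: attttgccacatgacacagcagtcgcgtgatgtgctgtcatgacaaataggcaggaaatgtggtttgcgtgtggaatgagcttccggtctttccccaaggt

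Over all 5 genes, 81 Jun-family regions lay within 100 kb of a start site, a region being a set of overlapping peaks of the 3 proteins in either line. PLAU had 18 of them (7 called in both lines, 4 in A549 alone and 7 in B2B alone), PLAUR 23 (8, 8 and 7), PLAT 19 (2, 5 and 12), SERPINE2 14 (7, 5 and 2) and SERPINB2 7 (5, 0 and 2). In all, 29 regions were shared (35.8%, Wilson 95% interval 26.2% to 46.7%, counting error only), against 27.2% of all 55710 Jun-family regions within 100 kb of a coding start site. A549 alone held 22 (27.2%, 18.7% to 37.7%), against 34.8% of all, and B2B alone 30 (37.0%, 27.3% to 47.9%), against 38.0%. All 3 background shares lay within these intervals. The genes differed among themselves, with PLAT having mostly regions of B2B alone and SERPINE2 few of them. In B2B 48 of the 59 regions were called for Jun and neither of the other two proteins, against 78.8% of all B2B regions near coding genes. Because 25 other coding genes have a start site within 100 kb of one of the 5, a region within that distance is not assigned to a gene.

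**Figure D4:**
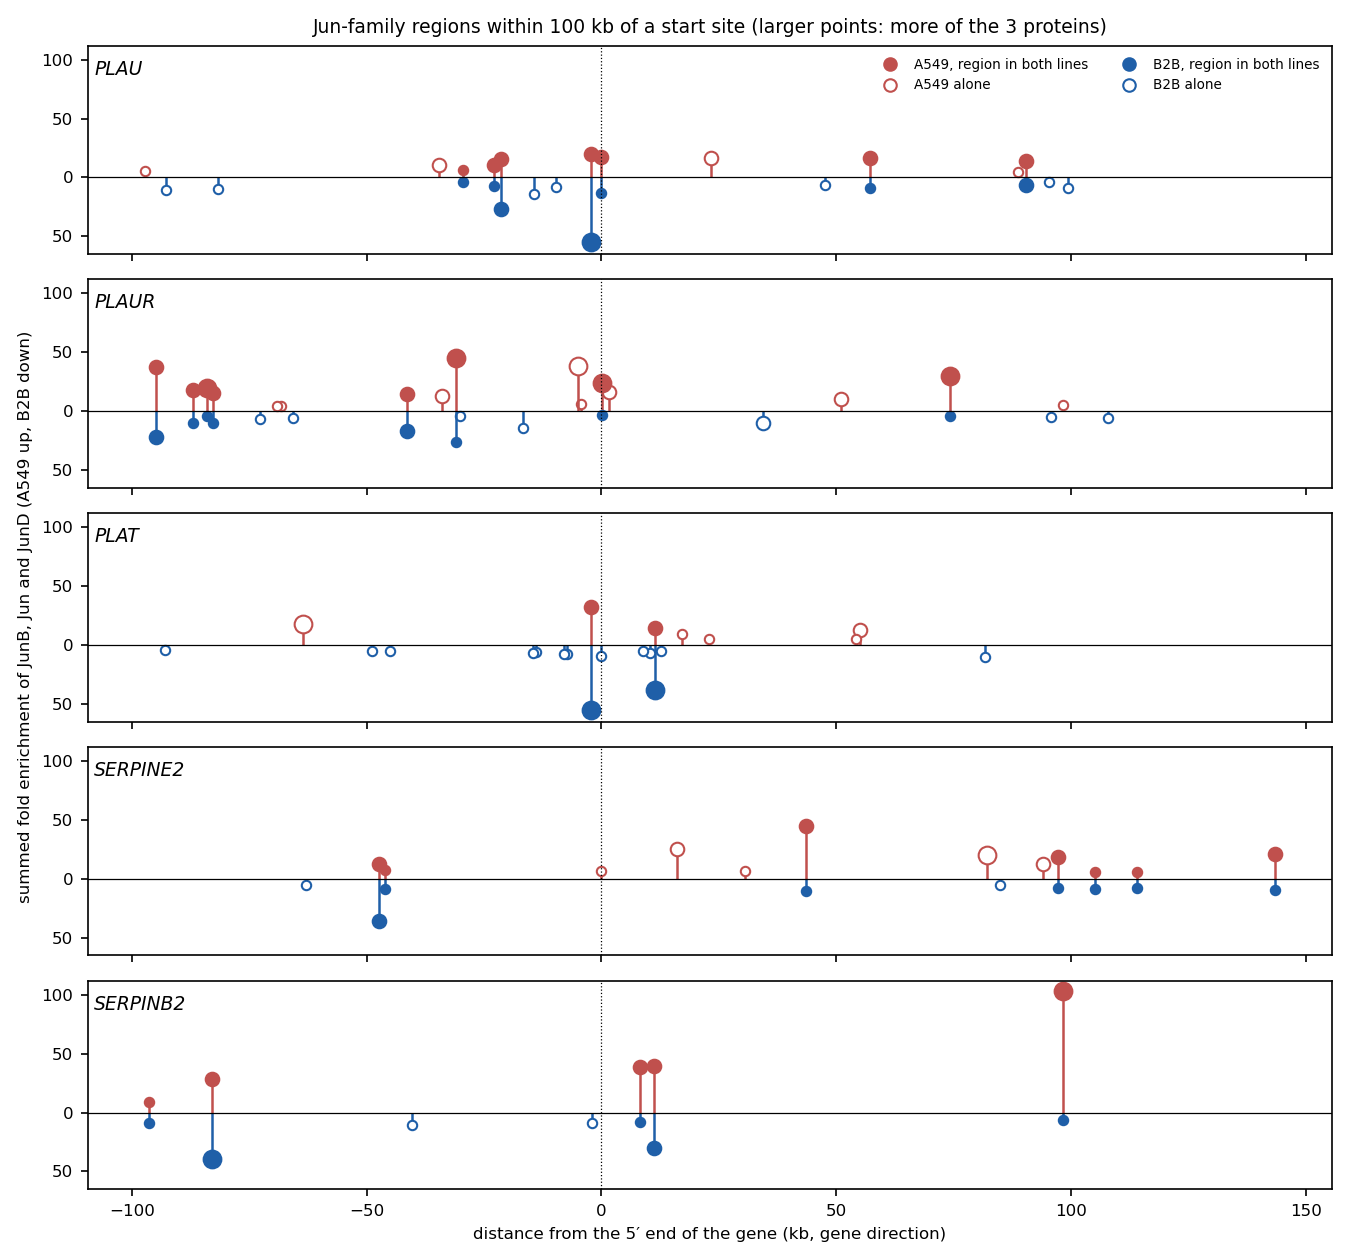
For each gene, points show Jun-family regions at their distance from the 5′ end in kb, with the summed fold enrichment of JunB, Jun and JunD in A549 drawn upward and in B2B downward; filled points are regions called in both lines, open points regions of 1 line, and point size grows with the number of proteins called. The highest region, at +98.3 kb from SERPINB2, has a summed fold of 103 in A549 and 5.97 in B2B, and PLAT has 12 regions of B2B alone.

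All 3 proteins were called together in 8 of the 51 regions of A549 (15.7%, against 16.5% of all A549 regions near coding genes) and in 4 of the 59 regions of B2B (6.78%, against 9.48%). The position of these differed. In A549 6 of the 8 overlapped a coding start site, namely those of PLAUR, IKBKB near PLAT, MRPL44 near SERPINE2, SERPINB8 near SERPINB2, SMG9 near PLAUR and the pair IRGQ and ZNF576 near PLAUR, against 28.8% of all such regions in A549. In B2B none of the 4 did, against 4.79% of all such regions in B2B. The 4 were the region at -2.3 kb of PLAU, those at -2.3 kb and +11.3 kb of PLAT and that at -83.0 kb of SERPINB2.

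In 28 shared regions Jun itself was called in both lines. Its summits lay a median of 22.5 bp apart, and 19 of the 28 (67.9%) were within 50 bp, against 85.3% of 14002 such regions near coding genes. The fold was higher in A549 in 12 of the 28 (42.9%), against 55.1% of all. Both PLAT regions were higher in B2B, as were 5 of the 7 at PLAU. Jun ranked within the top of both lists at PLAUR -31.0 kb and SERPINB2 +11.1 kb, while at PLAUR +74.3 kb, over the starts of IRGQ and ZNF576, it ranked above 81.6% of the A549 list and 2.16% of the B2B list.

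**Figure D5:**
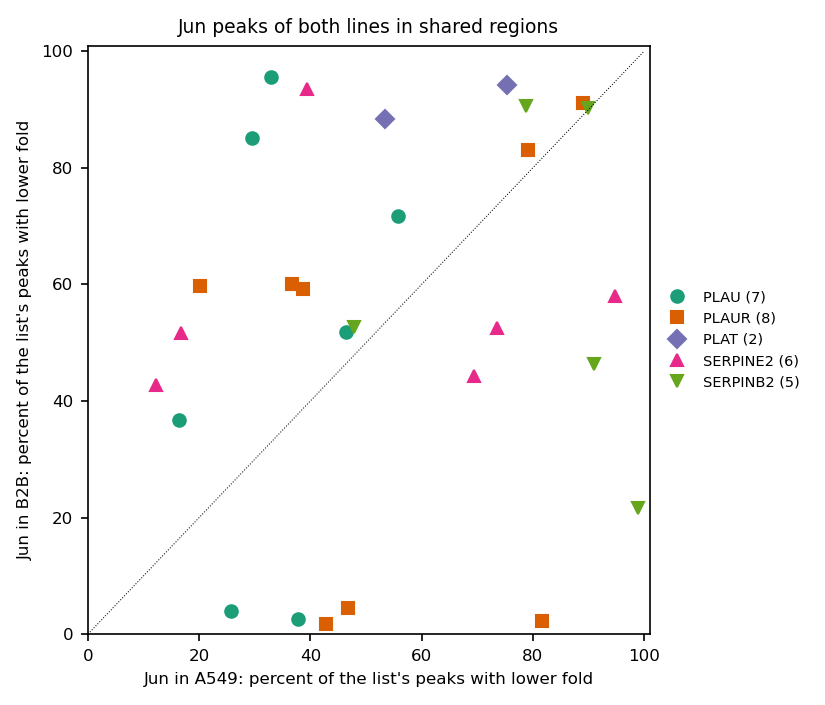
Each point is 1 of the 28 regions with a Jun peak in both lines, plotted by the percent of the A549 Jun list (x axis) and of the B2B Jun list (y axis) with a lower fold, marked by gene with the number of regions in brackets; the dotted line marks equal ranks. PLAU -2.3 kb lies at 32.9% in A549 and 95.6% in B2B, and SERPINB2 +98.3 kb at 98.9% and 21.7%.

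The motif TGACTCA or TGAGTCA, searched on the reference within 50 bp of any Jun-family summit, was found in 34 of the 81 regions (42.0%, Wilson 95% interval 31.8% to 52.8%), against 38.8% of all Jun-family regions near coding genes. In windows of the same width 2 kb to either side it was found for 2 of the 81 regions (2.47%) and for 4.12% of all. Among regions called in both lines it was found in 20 of 29 (69.0%, 50.8% to 82.7%), in 5 of 22 regions of A549 alone (22.7%, 10.1% to 43.4%) and in 9 of 30 of B2B alone (30.0%, 16.7% to 47.9%). Over all regions near coding genes the shares were 60.1% for both lines, 31.4% for A549 alone and 30.4% for B2B alone. A region counted if any of its summits had the motif. Shared regions hold at least 1 peak of each line, so more summits tend to be searched in them. How much of the difference between the classes rests on this was not tested. The intervals of the classes of 1 line overlapped widely among the regions of the 5 genes. All 5 shared regions of SERPINB2, both of PLAT, 5 of 7 of SERPINE2, 5 of 8 of PLAUR and 3 of 7 of PLAU had the motif. A match is a property of the reference and does not show a bound site.

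Other marks overlapped the Jun-family regions of the 5 genes at shares near or above those of all regions of the same line, with H3K27ac in B2B the farthest above. Pol II overlapped 29 of 51 regions in A549 (56.9%, against 48.4%) and 20 of 59 in B2B (33.9%, against 20.0%). H3K27ac overlapped 15 of 30 covered regions in A549 (against 35.5%) and 20 of 59 in B2B (33.9%, against 16.6%). Med1 overlapped 11 of 30 in A549 (36.7%, against 32.5%) and 10 of 37 in B2B (against 15.0%). H3K4me3 overlapped 20 of 51 in A549 (39.2%, against 36.3%) and 8 of 59 in B2B (13.6%, against 9.06%). CTCF overlapped 21 of 59 (35.6%, against 34.5%) and Rad21 9 of 59 (15.3%, against 10.7%) in B2B. Regions of 1 gene are neighbours and share promoters, so they are not independent.

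Among 18 other genes of plasminogen activation, its inhibitors, receptors and clearance, a Jun-family promoter peak was called at 9 in A549 (against 43.8% of coding genes) and at 7 in B2B (25.5%), and H3K4me3 at 11 in A549 (73.7%) and 9 in B2B (62.7%). For 3 of the 18 genes the Jun-family peak was in A549 and not in B2B, against 24.0% of coding genes. PLGRKT, a plasminogen receptor, had a JunB fold of 4.60, a Jun fold of 9.68 and a JunD fold of 3.94. F12, the contact factor XII, had 7.74 for Jun, 5.16 for JunB and 6.43 for JunD at most. ST14, the membrane protease matriptase, had 5.98 for Jun and 6.23 for JunB with neither pol II nor H3K4me3 in either line. VTN (vitronectin, a matrix protein that binds PLAUR) had a Jun peak in B2B only, with a fold of 4.91, and was the 1 gene of the list with a Jun-family peak in B2B and not in A549, against 5.62% of coding genes. Among the 5 genes, SERPINE2 had a Jun-family peak within 3 kb in A549 alone and SERPINB2 in B2B alone. For SERPINB2 this depended on the distance, since within 5 kb JunB and Jun of A549 were called there too.

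H3K4me3 was called at F12 (fold 39.4, 193 reads) and at VTN (fold 33.9, 133 reads) in A549 and not in B2B, against 12.9% of coding genes. It was called at no gene of the list in B2B alone, against 1.87% of coding genes.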

How the data were processed

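ChIP-seq of 36 samples (18 groups of 2 replicates) in A549 and B2B was analysed from the 16 peak lists. Per the methods of the study and the processing notes of the submitters, the authors aligned reads to hg38 with Bowtie2 2.4.4, removed duplicates, merged replicates, scaled them with SAMtools 1.13 and called peaks with MACS2 2.2.7.1. The control and the options of the caller are not given in the sources used here. The deposited values per peak are a fold enrichment (a ratio), a −log10 p-value and a −log10 q-value, which the authors' peak caller computed on the pooled reads.

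Peaks of the 22 autosomes, X and Y were placed against the start sites of GENCODE release 44 with Python 3.11.15, NumPy 2.4.6 and SciPy 1.17.1, with a minimum overlap of 1 bp. A list that ended early was counted only over genes that it covers. Pileup and local background were solved from the fold, (pileup + 1) / (background + 1), and the Poisson p-value, accepting a whole pileup within 0.01 of the deposited −log10 p. On simulated data, 500 of 500 pileups were recovered and 6 of 6 interval counts equalled those of bedtools 2.31.1. Sequences came from the hg38 reference with pysam 0.24.0 and an index by samtools 1.23.1, and plots from Matplotlib 3.10.9. Shares have Wilson 95% intervals, which cover counting error only and treat neighbouring regions of 1 gene as independent. No test was run, since each list pools its replicates and depth is unknown.

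The 5 genes and the pathway list were chosen with earlier results of these data known. Regions named were those within 3 kb of a start site, those with all 3 Jun-family proteins in a line, and the region of highest summed fold per gene and line. The 2 regions inside SERPINB2, and the sequences of the regions with the highest summed fold in B2B at SERPINE2 (-47.4 kb) and SERPINB2 (-83.0 kb), were added after their values were seen. Sequences were taken at the strongest named region of each gene and class, leaving out chromosome 8. Alternatives tried were distances of 1 kb, 5 kb and 50 kb, the 5′ end of the gene alone, a −log10 q of at least 5, lists of equal length, 50% reciprocal overlap, merging over 500 bp, and the whole region or further motifs (TGAATCA and its reverse complement, and the CRE) for the motif search.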

Additional observations from a re-analysis of the deposited data

How the results depend on the processing

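The lists pool replicates, so no spread between samples is known and nothing could be left out. No paired analysis was possible because the replicates were merged before peak calling and no result comes from a test. Fold depends on a local background that was high in B2B at several start sites, and 3 of the lists that end early miss PLAUR and SERPINB2. At a −log10 q of at least 5, Med1 in A549 was called at 1 gene (SERPINE2, no longer PLAU) in place of 2, and JunD in A549 at 0 in place of 1. Within 1 kb, B2B JunB and JunD were each called at 1 gene (PLAT, no longer PLAU) in place of 2. Within 50 kb, the regions numbered 52 in place of 81, of which 17 in place of 29 were shared and 19 in place of 30 were in B2B alone, and those of PLAU numbered 10 in place of 18, of PLAUR 11 in place of 23 and of SERPINB2 4 in place of 7, lower by construction. Over the whole merged region the motif was found in 82.8% of the shared regions, and with the variant motifs added in 86.2%, in place of 69.0%. With lists of equal length the JunB peak at the SERPINE2 start site was lost, and with the 5′ end of the gene alone the H3K4me3 peak of A549 at PLAT was lost. Within 5 kb JunB and Jun of A549 and JunD of B2B were also called at SERPINB2, and within 1 kb its Jun and CTCF peaks of B2B were lost. All other counts of genes, regions and motifs stayed within 1.5 times the value given, or within its interval for motif shares. The cause of these changes was not tested.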

Other observations

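The 25 other coding genes with a start site within 100 kb of one of the 5 genes mostly had pol II and H3K4me3 promoter peaks in both lines. H3K4me3 was called within 3 kb of a start site at 21 of the 25 in A549 (73.7% of all coding genes) and at 20 in B2B (62.7%), and pol II at 22 in A549 (69.6%) and 17 in B2B (50.9%). Among the Jun family, A549 had JunB at 15 (31.1% of all coding genes), Jun at 17 (38.2%) and JunD at 9 (17.8%) of the 25. B2B had JunB at 1 (5.28%), Jun at 13 (25.4%) and JunD at 0 (3.21%). The single neighbour with JunB in B2B was VCL, which encodes the adhesion protein vinculin and starts 84.0 kb from PLAU.

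The neighbours of SERPINB2 were of both kinds. SERPINB8 had pol II, H3K4me3 and Jun in both lines, while SERPINB10 and SERPINB7, serpins of the same cluster, had no pol II or H3K4me3 peak in either line, and SERPINB7 had Jun in both.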
